A study of Mus musculus with 12 samples.

Results

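The transcripts described here encode 10 dual-specificity phosphatases that act on or near the MAP kinases: *Dusp1*, *Dusp2*, *Dusp3*, *Dusp4*, *Dusp5*, *Dusp6*, *Dusp7*, *Dusp10*, *Dusp16* and *Dusp22*. They were chosen by gene symbol from the 12850 genes in the deposited table, where all 10 were listed, and all 10 passed the filter on low values that left 11885 genes for testing. RNA came from peritoneal exudate cells (PECs), which were drawn to the peritoneal cavity by thioglycollate, an irritant, in C57BL/6 mice. The mice were WT or carried S513A on both copies of *Zc3h12a* (S513A mice), a knock-in change in which a serine of the RNA-degrading enzyme Regnase-1 becomes alanine. PECs of each genotype were cultured and given LPS, a component of the bacterial cell wall, at 100 ng/ml for 4 or 8 hr or were left without it (0 hr). Each of the 6 groups had 2 libraries, and the labels do not say whether those came from separate mice, so p values measure the spread between these libraries, which may be technical.

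MAP kinases (ERK, JNK and p38) are switched on when an upstream kinase phosphorylates a threonine and a tyrosine in their activation loop. Dual-specificity phosphatases switch them off by removing both phosphates. In macrophages, sensing of LPS through Toll-like receptor 4 activates the ERK, JNK and p38 branches, and several of the phosphatase genes are themselves induced by the kinases that their products inactivate, so that the family is known as a negative feedback on inflammatory signaling. The family is usually divided by location and substrate into inducible nuclear enzymes (*Dusp1*, *Dusp2*, *Dusp4* and *Dusp5*), cytoplasmic enzymes that prefer ERK (*Dusp6* and *Dusp7*), enzymes that prefer JNK and p38 (*Dusp10* and *Dusp16*), and small atypical enzymes without a MAP kinase-binding domain (*Dusp3* and *Dusp22*).

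Upstream DNA of 3 of the inducible nuclear members is shown because their transcripts took different courses in LPS-treated PECs (below): *Dusp1* rose and stayed up, *Dusp2* rose and returned, and *Dusp5* fell. Each run is the 250 bases before the transcription start in RefSeq (GRCm38.p6), written 5′ to 3′ on the strand of the gene, with capitals on the letters that matched a searched motif.
Dusp1, chr17:26508473-26508722, minus strand: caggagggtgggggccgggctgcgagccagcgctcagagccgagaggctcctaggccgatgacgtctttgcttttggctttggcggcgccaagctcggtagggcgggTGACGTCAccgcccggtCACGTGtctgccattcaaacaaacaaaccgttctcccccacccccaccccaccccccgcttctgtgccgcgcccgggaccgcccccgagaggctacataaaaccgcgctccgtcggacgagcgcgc
Dusp2, chr2:127335909-127336158, plus strand: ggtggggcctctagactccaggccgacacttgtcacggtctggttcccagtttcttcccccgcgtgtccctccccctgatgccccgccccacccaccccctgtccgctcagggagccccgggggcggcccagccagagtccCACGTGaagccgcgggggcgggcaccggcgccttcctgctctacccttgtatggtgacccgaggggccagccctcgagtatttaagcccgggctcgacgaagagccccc
Dusp5, chr19:53528895-53529144, plus strand: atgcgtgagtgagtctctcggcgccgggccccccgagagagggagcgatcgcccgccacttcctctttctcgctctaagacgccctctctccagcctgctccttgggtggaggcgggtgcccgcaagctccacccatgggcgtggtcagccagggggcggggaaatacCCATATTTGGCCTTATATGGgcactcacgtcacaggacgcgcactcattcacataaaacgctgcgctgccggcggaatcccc
The capitals in *Dusp1* are a cyclic AMP response element (TGACGTCA) that begins at position -143 and an E box (CACGTG) that begins at -126, both counted from the start. In *Dusp2* they are an E box at -109, and in *Dusp5* they are a pair of adjoining CArG boxes, the element read by serum response factor, at -82 and -72. Both strands of windows of 300 bases (250 before and 50 after the start) were searched, and the motifs found do not overlap each other. The cyclic AMP response element was present in 1.79% of all 32851 RefSeq windows, the E box in 7.15% and the CArG box in 1.63%. Of the 9 members with a window (*Dusp4* had none), 1 held the cyclic AMP response element, 2 the E box, 1 the CArG box and 1 (*Dusp22*, at -240) a kappaB site, which 4.51% of all windows hold. The AP-1 site (TGACTCA or TGAGTCA) and the TATA box letters (TATAAA) were in none of the 9 windows and in 5.2% and 13.6% of all windows. A match describes letters and is no evidence of binding.

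Reads on listed genes numbered 9525979 to 12439960 per library. Replicates were closest in S513A PECs at 0 hr and farthest apart in WT PECs at 4 hr, with an SD of the log2 difference between them of 0.162 and 0.401. All 7 macrophage markers were listed, with summed levels of 16710 to 27590 CPM per library, in cells that the paper describes as peritoneal macrophages. Markers of other cells were far lower: 2 of 8 neutrophil markers were listed (23.3 to 96.7 CPM summed), 4 of 5 for B cells (3.49 to 8.2), 2 of 6 for T cells (1.21 to 2.34), 2 of 5 for eosinophils (3.57 to 19.6), 3 of 5 for mast cells (0.969 to 3.05) and 3 of 4 for mesothelial cells (0.315 to 2.49). The defining T cell genes *Cd3e*, *Cd3d* and *Cd3g* and 4 of 4 erythroid markers were not listed. Several of these sums moved with LPS. The eosinophil sum went from 17.3 to 19.6 CPM at 0 hr to 3.57 to 4.39 CPM at 8 hr, and the macrophage sum from 23310 to 27590 CPM at 0 hr to 16710 to 23120 CPM after LPS. The effective size was above the reads on listed genes in every 0 hr library (14351700 against 12439960 in WT replicate 1). At 4 hr it was below them in every library (8606650 against 9812085 in S513A replicate 2). With that scaling the macrophage sums at 0 and 4 hr would lie closer together, which was not computed. The neutrophil sum in WT PECs was 23.3 to 40.0 CPM at 0 hr, 44.1 to 59.5 CPM at 4 hr and 82.7 to 96.7 CPM at 8 hr, while in S513A PECs it was 54.4 to 57.3, 49.5 to 94.8 and 34.6 to 84.2 CPM. Between the genotypes at 0 hr, the neutrophil sum was higher in both S513A libraries, and the B cell sum (3.49 to 4.64 against 5.95 to 7.76 CPM) and the mesothelial sum (0.715 to 1.02 against 1.83 to 2.49 CPM) were lower. The part of these markers in the results below was not tested. The S513A change alters a codon, and counts per gene cannot check it. In these bulk samples, fewer cells of a type and less RNA per cell cannot be told apart.

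Before LPS, *Dusp3*, which encodes a small phosphatase of ERK and JNK, was the leading transcript of the family. Levels of different genes were compared as CPM per kb of transcript over the 4 libraries of a time point. The length was that of the longest GENCODE transcript matched to a RefSeq mRNA, so ranks and shares depend on that choice. At 0 hr, *Dusp3* stood at 73.7 ± 2.53 CPM per kb (SD, n = 4) and made up 52.9% of the summed level of the 10, against 15.2 ± 0.99 CPM per kb for *Dusp7* in second place. Below them came *Dusp4* (12.3 ± 1.01), *Dusp6* (12.3 ± 1.24) and *Dusp1* (10.2 ± 0.82 CPM per kb), whose neighbouring ranges overlapped, then *Dusp22* (6.39), *Dusp2* (4.57) and *Dusp16* (2.79 CPM per kb), whose ranges were separate. *Dusp10* (1.13 CPM per kb) and *Dusp5* (0.92 CPM per kb) were last, with overlapping ranges and 23 to 44 reads per library.

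With LPS the order changed. At 4 hr, *Dusp3* (41.2 ± 3.29 CPM per kb) and *Dusp4* (36.5 ± 6.3 CPM per kb) had overlapping ranges and held 30.6% and 27.0% of the summed level. At 8 hr, *Dusp4* (40.4 ± 5.75 CPM per kb, 30.3% of the sum) and *Dusp3* (39.1 ± 2.26 CPM per kb, 29.5%) again overlapped, ahead of *Dusp1* at 15.2 ± 1.17 CPM per kb. *Dusp16* moved from the eighth place at 0 hr to the fourth at 4 hr (10.8 ± 0.63 CPM per kb), where its range overlapped that of *Dusp6* (10.8 ± 1.48 CPM per kb), and lay in the sixth at 8 hr (6.36 ± 0.71 CPM per kb). *Dusp5* and *Dusp10* remained last at every time, at 0.53 to 0.64 CPM per kb after LPS.

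**Figure D1:**
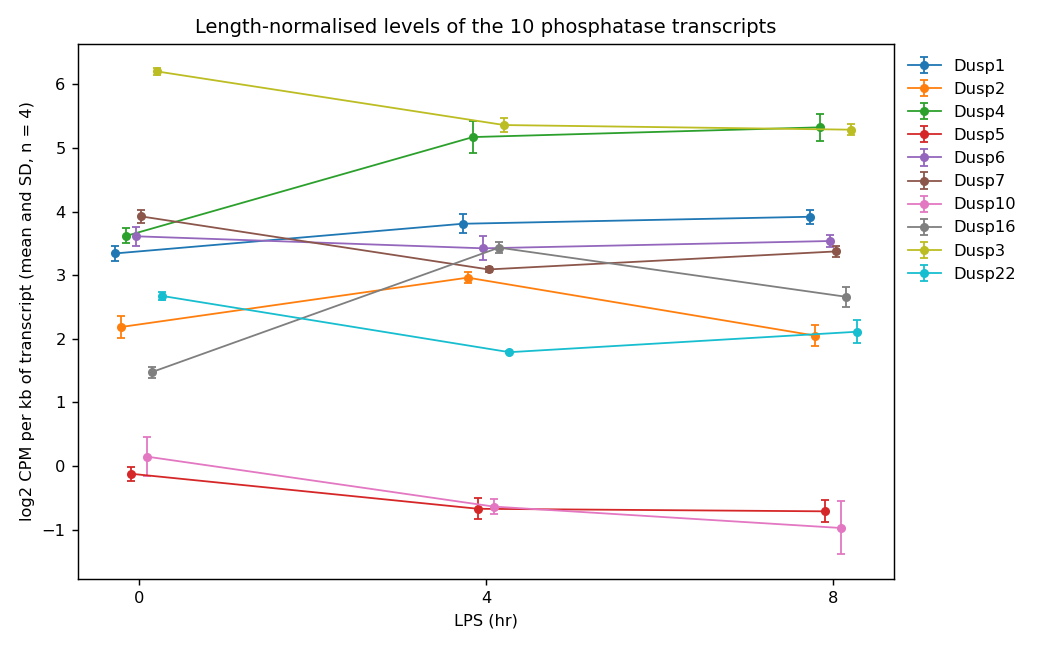
Level of each of the 10 transcripts as log2 CPM per kb of transcript (vertical axis) at 0, 4 and 8 hr of LPS (horizontal axis), with points at the mean and bars at the SD of the 4 libraries of both genotypes, offset sideways to keep them apart. *Dusp3* leads alone at 0 hr (73.7 CPM per kb), *Dusp4* has joined it at 4 and 8 hr, and *Dusp5* and *Dusp10* lie at the bottom throughout.

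To find out which members changed with LPS, each time point was compared with another over both genotypes in 1 limma model of all 12 libraries, with Benjamini-Hochberg adjustment of p over all 11885 genes in the test. At 4 hr against 0 hr, 4 of the 10 rose (*Dusp1*, *Dusp2*, *Dusp4* and *Dusp16*) and 5 fell (*Dusp5*, *Dusp7*, *Dusp10*, *Dusp3* and *Dusp22*), while 29.1% of all genes tested rose and 26.7% fell. *Dusp6* did not pass. At 8 hr against 0 hr, 3 rose (*Dusp1*, *Dusp4* and *Dusp16*) and the 5 genes that were lower at 4 hr were again lower, against a background of 24.5% of genes higher and 21.6% lower. Between 4 and 8 hr, 2 members rose (*Dusp7* and *Dusp22*) and 2 fell (*Dusp2* and *Dusp16*), with 12.8% of all genes in each direction. The median log2 fold change of the 10 was -0.37 at 4 hr, -0.34 at 8 hr and 0.035 from 4 to 8 hr, beside 0.017, -0.00070 and -0.023 over all genes tested.

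**Figure D2:**
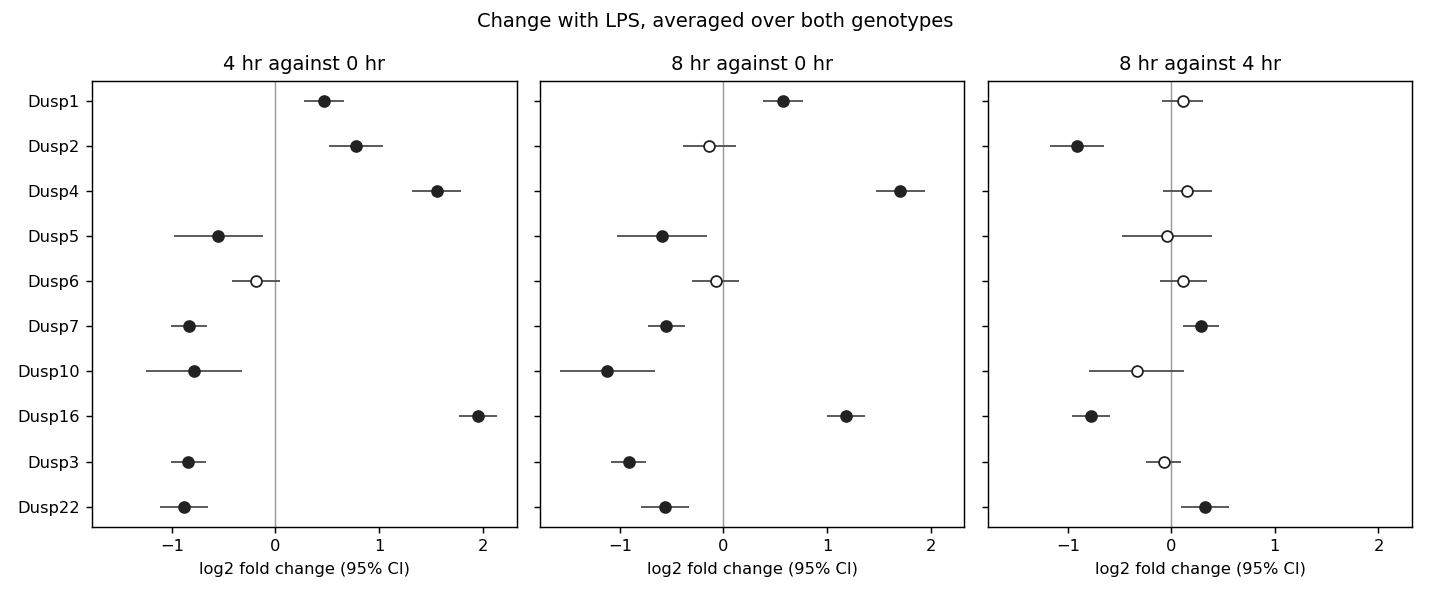
Log2 fold change of each member with its 95% confidence interval (horizontal axis) for the 3 comparisons of time points, averaged over both genotypes, with filled circles for members past an adjusted p of 0.05 in limma and open circles for the others. *Dusp4* and *Dusp16* lie farthest to the right at 4 hr (1.56 and 1.96), and *Dusp2* and *Dusp16* lie left of 0 from 4 to 8 hr.

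Among the inducible nuclear enzymes, *Dusp4* showed the largest sustained rise. *Dusp4* (Entrez gene 319520, chromosome 8, 34807610 to 34819894 in GRCm38.p6) encodes a phosphatase of ERK and JNK. WT libraries of *Dusp4* read 4.97 and 4.97 (0 hr), 6.54 and 6.92 (4 hr), and 6.54 and 6.67 (8 hr) in log2 CPM. S513A libraries read 5.14 and 5.20 (0 hr), 6.71 and 6.33 (4 hr), and 6.99 and 6.91 (8 hr). Every stimulated library lay above every unstimulated one, and the 4 and 8 hr libraries overlapped. The log2 fold change was 1.56 at 4 hr (SE 0.11, 2.94-fold, limma adjusted p = 4.29e-07) and 1.71 at 8 hr (SE 0.11, 3.27-fold, limma adjusted p = 2.64e-07). From 4 to 8 hr the difference was 0.15, with a 95% confidence interval from -0.083 to 0.39.

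*Dusp1* (Entrez gene 19252, chromosome 17, 26505591 to 26508472) encodes the best studied member in macrophages, a phosphatase of p38 and JNK that limits cytokine production after LPS. In log2 CPM, *Dusp1* stood in WT PECs at 4.17 and 4.34 (0 hr), 4.67 and 4.71 (4 hr), and 4.76 and 4.97 (8 hr). The S513A values were 4.45 and 4.39 (0 hr), 4.83 and 5.0 (4 hr), and 4.90 and 5.01 (8 hr). Here too, no stimulated library overlapped the unstimulated ones, but the step was smaller than that of *Dusp4*. *Dusp1* rose by 0.47 in log2 at 4 hr (SE 0.088, 1.38-fold, limma adjusted p = 0.00101) and by 0.58 at 8 hr (SE 0.088, 1.49-fold, limma adjusted p = 0.000303). Its largest induction after LPS is known to come within the first hour, which these time points do not cover.

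*Dusp2* (Entrez gene 13537, chromosome 2, 127336159 to 127338377), first described in activated lymphocytes as a nuclear phosphatase of ERK and p38, was the nuclear member that rose and then fell. The WT values of *Dusp2* were 2.72 and 3.11 (0 hr), 3.61 and 3.57 (4 hr), and 2.74 and 2.96 (8 hr) in log2 CPM. Those of S513A PECs were 2.86 and 2.83 (0 hr), 3.76 and 3.68 (4 hr), and 2.56 and 2.71 (8 hr). All 4 libraries at 4 hr lay above the others, while those at 0 and 8 hr overlapped. *Dusp2* rose by 0.78 at 4 hr (SE 0.12, 1.71-fold, limma adjusted p = 0.000202) and fell by 0.91 in log2 from 4 to 8 hr (SE 0.12, limma adjusted p = 0.000315). At 8 hr its difference from 0 hr was -0.13, with a 95% confidence interval of -0.39 to 0.12 (limma adjusted p = 0.382).

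*Dusp5* (Entrez gene 240672, chromosome 19, 53529145 to 53541809), a nuclear phosphatase restricted to ERK, went the other way at a low level of 12 to 35 reads per library. WT libraries of *Dusp5* read 1.31 and 1.18 (0 hr), 0.45 and 0.77 (4 hr), and 0.56 and 0.56 (8 hr) in log2 CPM. S513A PECs gave 1.04 and 1.21 (0 hr), 0.78 and 0.54 (4 hr), and 0.42 and 0.84 (8 hr). The unstimulated libraries lay above all stimulated ones, by a narrow margin. *Dusp5* fell by 0.55 in log2 at 4 hr (SE 0.20, limma adjusted p = 0.0331) and by 0.59 at 8 hr (SE 0.20, limma adjusted p = 0.0293). At 4 hr the call was lost with quantile normalization (log2 fold change -0.39) and on leaving out either WT or either S513A library at 0 hr, WT replicate 1 at 4 hr or S513A replicate 2 at 4 hr, with limma adjusted p values from 0.00526 to 0.12 over 23 alternatives on both genotypes. At 8 hr it was lost with quantile normalization (-0.45) and without any one of the 4 libraries at 0 hr, either WT library at 8 hr or S513A replicate 1 at 8 hr (limma adjusted p from 0.00479 to 0.105), and with a further pseudocount of 1 CPM the difference was -0.36 at 4 hr and -0.38 at 8 hr. LPS times were also compared within each genotype, in the same model of all 12 libraries and with its shared spread. For *Dusp5* neither genotype passed, with limma adjusted p values of 0.0892 (WT) and 0.206 (S513A) at 4 hr and of 0.0796 and 0.177 at 8 hr.

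**Figure D3:**
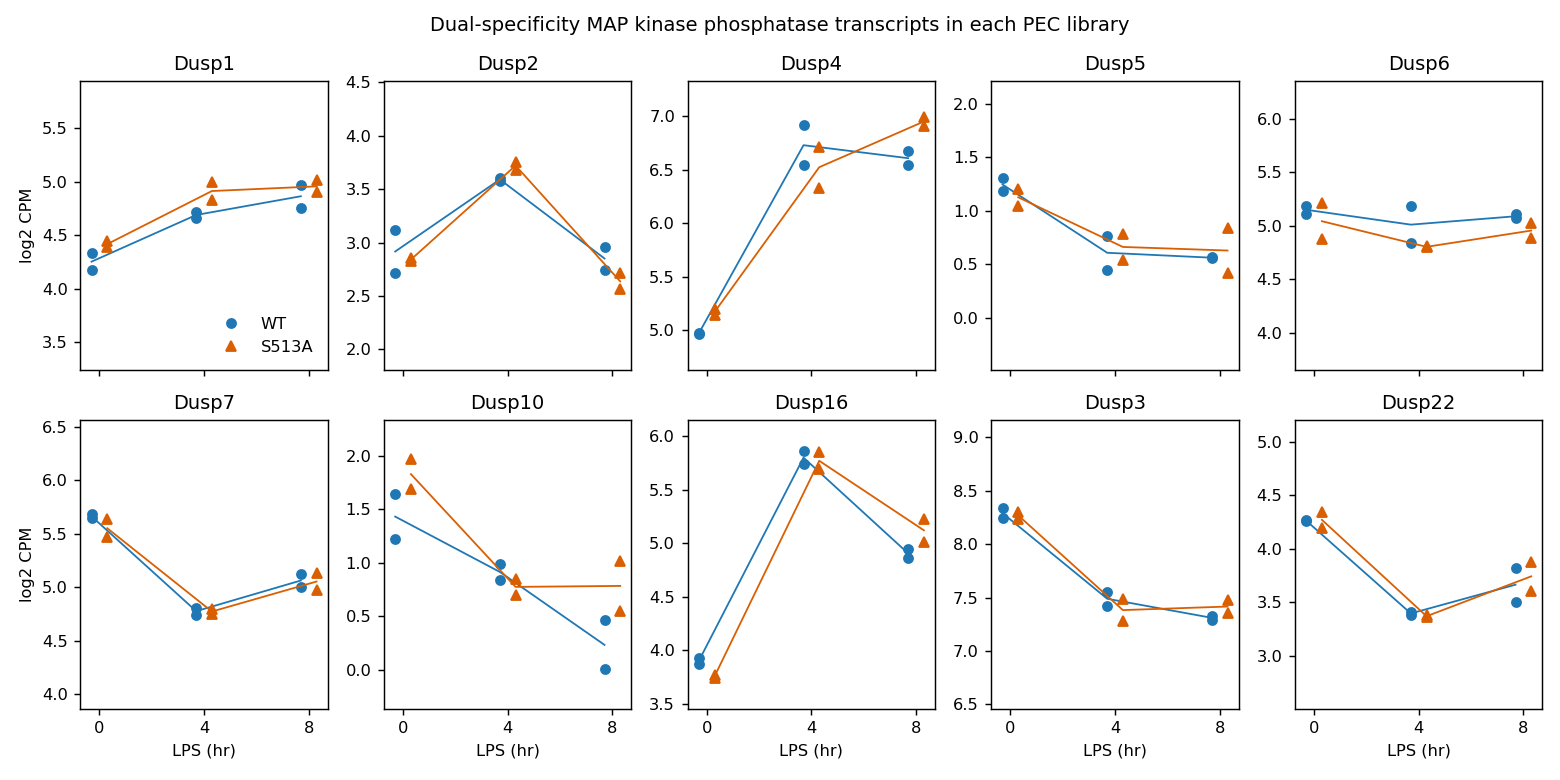
Log2 CPM of each member (vertical axis, each panel spanning the same height in log2 units) in all 12 libraries against hours of LPS (horizontal axis), with circles for WT, triangles for S513A and lines through the mean of each pair, offset sideways by genotype. *Dusp4* and *Dusp16* climb at 4 hr, *Dusp2* peaks at 4 hr, *Dusp3*, *Dusp7* and *Dusp22* step down, *Dusp6* stays between 4.80 and 5.21, and WT and S513A points lie close together in most panels.

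The ERK-selective cytoplasmic pair differed from each other. *Dusp6* (Entrez gene 67603, chromosome 10, 99263231 to 99267489) is a widely used readout of ERK activity because ERK signaling induces it. In log2 CPM, *Dusp6* stood in WT PECs at 5.19 and 5.11 (0 hr), 4.84 and 5.18 (4 hr), and 5.11 and 5.07 (8 hr). S513A libraries read 4.88 and 5.21 (0 hr), 4.81 and 4.80 (4 hr), and 4.88 and 5.02 (8 hr). The 3 time points overlapped. The log2 difference was -0.19 at 4 hr (95% confidence interval of -0.42 to 0.039, limma adjusted p = 0.144) and -0.074 at 8 hr (from -0.30 to 0.15, limma adjusted p = 0.595). At 4 hr, *Dusp6* passed the threshold without WT replicate 2 at 4 hr (-0.28, limma adjusted p = 0.0325) and with quantile normalization (-0.29, limma adjusted p = 0.0357), 2 of its 24 alternatives. The span of the lncRNA gene *Gm34921* meets that of *Dusp6* in RefSeq, and *Gm34921* is not listed. Whether their exons overlap was not checked. Where they do, unstranded reads of the 2 genes could not be separated.

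*Dusp7* (Entrez gene 235584, chromosome 9, 106368560 to 106375724), the close relative of *Dusp6*, was lower after LPS. The WT values of *Dusp7* were 5.68 and 5.64 (0 hr), 4.81 and 4.74 (4 hr), and 5.12 and 5.0 (8 hr) in log2 CPM. The S513A values were 5.47 and 5.64 (0 hr), 4.80 and 4.75 (4 hr), and 5.13 and 4.97 (8 hr). The 3 time points did not overlap, with 0 hr highest, 4 hr lowest and 8 hr between them. *Dusp7* fell by 0.83 in log2 at 4 hr (SE 0.079, 1.78-fold, limma adjusted p = 5.56e-06) and at 8 hr was still lower than at 0 hr (log2 fold change -0.55, SE 0.079, limma adjusted p = 0.000185). The rise of 0.28 from 4 to 8 hr (SE 0.079, limma adjusted p = 0.023) was lost without WT replicate 1 at 8 hr (limma adjusted p = 0.094), S513A replicate 1 at 8 hr (0.0845) or S513A replicate 2 at 4 hr (0.0663), and with only the libraries of those groups in the model (0.0639). It passed neither within WT (0.115) nor within S513A libraries (0.0995).

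*Dusp16* and *Dusp10*, which encode the enzymes that prefer JNK and p38, moved in opposite directions. *Dusp16* (Entrez gene 70686, chromosome 6, 134715468 to 134807063), a phosphatase that shuttles between nucleus and cytoplasm and favours JNK, showed the largest change of the 10 at 4 hr. WT libraries of *Dusp16* read 3.93 and 3.87 (0 hr), 5.74 and 5.86 (4 hr), and 4.95 and 4.86 (8 hr) in log2 CPM. Those of S513A PECs were 3.74 and 3.77 (0 hr), 5.85 and 5.69 (4 hr), and 5.23 and 5.01 (8 hr). The 3 time points were separate in both genotypes, with 4 hr highest and 8 hr between. *Dusp16* rose by 1.96 at 4 hr (SE 0.083, 3.88-fold, limma adjusted p = 9.71e-09), fell by 0.77 in log2 from 4 to 8 hr (SE 0.083, limma adjusted p = 0.000108) and at 8 hr was still 1.18 above 0 hr (SE 0.083, 2.27-fold, limma adjusted p = 6.68e-07). The spans of the lncRNA genes *Gm36328* and *1700055D16Rik* meet that of *Dusp16* in RefSeq, and neither is listed. A share of the *Dusp16* reads could be theirs if exons overlap, which was not checked.

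*Dusp10* (Entrez gene 63953, chromosome 1, 184034381 to 184075636), a phosphatase of p38 and JNK that restrains innate immune responses, was among the scarce members, with 10 to 44 reads per library. In log2 CPM, *Dusp10* stood in WT PECs at 1.22 and 1.64 (0 hr), 0.99 and 0.84 (4 hr), and 0.46 and 0.0024 (8 hr). S513A PECs gave 1.97 and 1.69 (0 hr), 0.70 and 0.85 (4 hr), and 1.02 and 0.55 (8 hr). All unstimulated libraries lay above all stimulated ones, and the libraries at 8 hr spread over the widest range of the 10 members. *Dusp10* fell by 0.79 in log2 at 4 hr (SE 0.21, limma adjusted p = 0.00764) and by 1.12 at 8 hr (SE 0.21, limma adjusted p = 0.00113). In the same model, the difference at 4 hr within WT libraries was -0.52 (limma adjusted p = 0.187), and within S513A libraries -1.05 (limma adjusted p = 0.014).

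The atypical enzymes both fell. *Dusp3* (Entrez gene 72349, chromosome 11, 101971141 to 101987013) had 1337 to 4334 reads per library, the most of the 10. The WT values of *Dusp3* were 8.24 and 8.34 (0 hr), 7.42 and 7.55 (4 hr), and 7.29 and 7.33 (8 hr) in log2 CPM. S513A libraries read 8.30 and 8.24 (0 hr), 7.49 and 7.28 (4 hr), and 7.48 and 7.35 (8 hr). Unstimulated libraries were higher than all others by a wide margin, and 4 and 8 hr overlapped. *Dusp3* fell by 0.84 in log2 at 4 hr (SE 0.076, 1.79-fold, limma adjusted p = 3.98e-06) and by 0.92 at 8 hr (SE 0.076, 1.89-fold, limma adjusted p = 2.62e-06).

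*Dusp22* (Entrez gene 105352, chromosome 13, 30660059 to 30711232), known as a regulator of JNK signaling and of T cell receptor signaling through Lck, took a similar course. WT libraries of *Dusp22* read 4.27 and 4.26 (0 hr), 3.38 and 3.41 (4 hr), and 3.50 and 3.82 (8 hr) in log2 CPM. The S513A values were 4.34 and 4.20 (0 hr), 3.38 and 3.36 (4 hr), and 3.88 and 3.61 (8 hr). The 3 time points were separate, and the libraries at 4 hr lay closest together. *Dusp22* fell by 0.88 in log2 at 4 hr (SE 0.10, 1.85-fold, limma adjusted p = 3.34e-05) and at 8 hr stood below 0 hr with a log2 fold change of -0.56 (SE 0.10, 1.48-fold lower, limma adjusted p = 0.00119). The rise of 0.32 from 4 to 8 hr (SE 0.10, limma adjusted p = 0.0456) was called in 9 of 24 alternatives and missed the threshold on leaving out any single library other than WT replicate 1 or S513A replicate 2 at 8 hr, with limma adjusted p values from 0.0319 to 0.172. Within WT libraries the limma adjusted p was 0.261, and within S513A libraries 0.0996.

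S513A and WT PECs were then compared at each time. None of the 10 members passed in limma at 0 hr (0.0337% of all genes tested passed), at 4 hr (0.0168%) or at 8 hr (0.0337%), nor in the mean over the 3 times (0.0673%). In these 4 comparisons, an unadjusted p under 0.05 was reached by 0, 0, 1 and 1 of the 10 members, and by 949, 833, 1487 and 798 of the 11885 genes tested, so the members stood near the background. With only the libraries of the groups compared in the model, 693 of all genes passed at 0 hr in place of 4, again with no member among them. The member log2 differences ranged from -0.15 to 0.40 at 0 hr, from -0.21 to 0.22 at 4 hr and from -0.21 to 0.55 at 8 hr, with 95% confidence intervals that reached from -0.73 to 1.05, from -0.79 to 0.67 and from -0.58 to 1.20. The widest intervals were those of *Dusp10* and *Dusp5*, which had the fewest reads.

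*Dusp10* had the largest difference at 0 hr, 0.40 higher in S513A (SE 0.29, limma adjusted p = 0.628), and at 8 hr, 0.55 higher (SE 0.29, 95% confidence interval of -0.097 to 1.20, limma adjusted p = 0.423). At 4 hr the difference of *Dusp10* was -0.14. The largest difference at 4 hr was that of *Dusp1*, 0.22 higher in S513A (SE 0.12, 95% confidence interval of -0.052 to 0.50, limma adjusted p = 0.622). *Dusp1* was also the member with an unadjusted p under 0.05 in the mean over times, at 0.16 (SE 0.072, 95% confidence interval of 0.0010 to 0.32, limma adjusted p = 0.744). At 8 hr that member was *Dusp4*, with S513A libraries at 6.99 and 6.91 and WT libraries at 6.54 and 6.67. The mean difference was 0.34 (SE 0.15, 95% confidence interval of 0.0087 to 0.68, limma adjusted p = 0.396). *Dusp10* had the largest difference in the mean over times, 0.27 (SE 0.17, limma adjusted p = 0.845).

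The response to LPS was compared between the genotypes with an interaction term. It was called for none of the 10 members and for 0% of all genes tested at 4 hr and 0% at 8 hr in limma, with 0 members under an unadjusted p of 0.05 at either time and 144 and 2405 of the 11885 genes. The count of 0 genes at 8 hr rested on a single library, since 651 passed without S513A replicate 2 at 8 hr, again with no member among them. At 4 hr the largest value was that of *Dusp10*, whose fall was greater in S513A than in WT PECs by an interaction of -0.54 (SE 0.41, 95% confidence interval of -1.45 to 0.38, limma adjusted p = 1.00). At 8 hr it was that of *Dusp16*, which stood above 0 hr by 1.00 in WT and 1.36 in S513A PECs, an interaction of 0.36 (SE 0.17, 95% confidence interval of -0.0079 to 0.73, limma adjusted p = 0.25). Over the 10 members the intervals reached from -1.45 to 1.04 at 4 hr and from -0.76 to 1.07 at 8 hr. That of *Dusp10* at 4 hr allows a difference between the genotypes larger than its own LPS change (-0.79). That of *Dusp16* at 8 hr allows one comparable to the smaller LPS changes above.

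**Figure D4:**
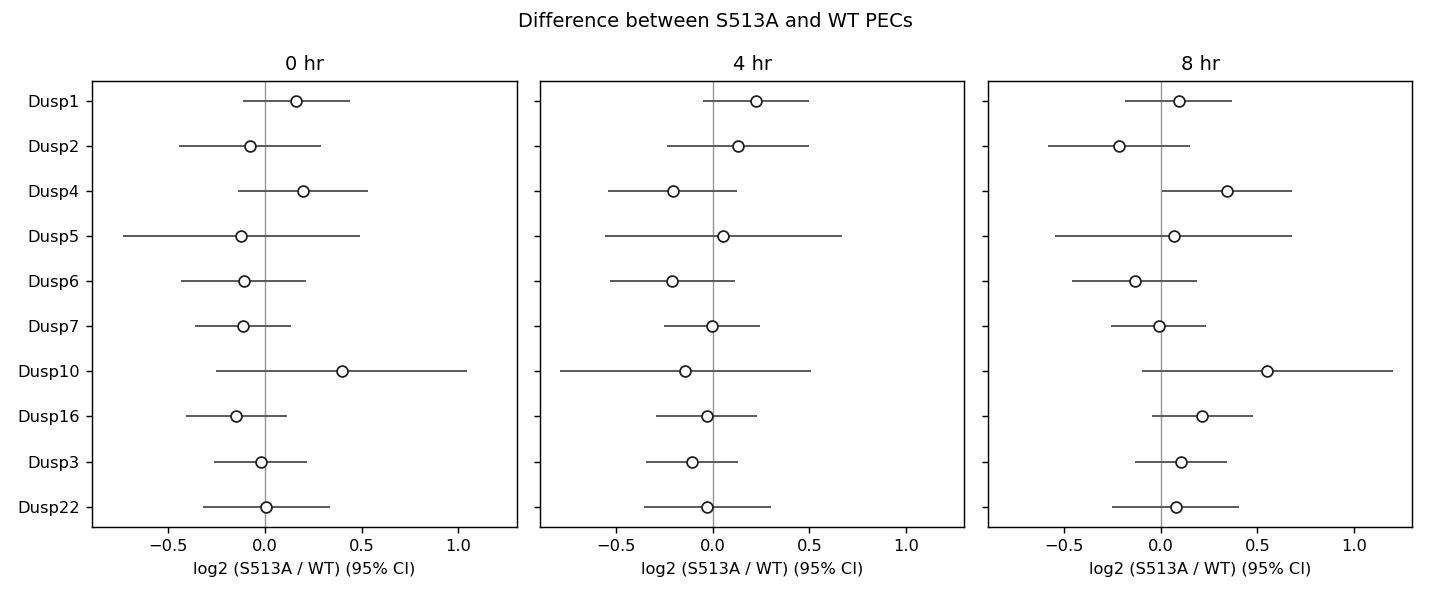
Log2 ratio of S513A to WT PECs for each member with its 95% confidence interval (horizontal axis) at 0, 4 and 8 hr of LPS, with open circles because no member passed an adjusted p of 0.05 in limma. The largest difference, 0.55 for *Dusp10* at 8 hr, has an interval that includes 0, and the interval of *Dusp4* at 8 hr starts at 0.0087.

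Across the 12 libraries, the members fell into opposite courses. As a description over libraries that share their LPS times, and with no test, *Dusp7* and *Dusp22* had a Pearson r of 0.94, *Dusp5* and *Dusp3* of 0.89, and *Dusp1* and *Dusp4* of 0.89 on log2 CPM. The most negative values were -0.96 between *Dusp7* and *Dusp16* and -0.95 between *Dusp16* and *Dusp22*. *Dusp2* had no r above 0.66 with another member, its highest being with *Dusp16*.

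For each member, the 3 tested genes with the most similar course over the 12 libraries were named by Pearson r. For *Dusp16* they were *Mapk14*, which encodes p38 alpha (0.999), *Zc3h12a*, which encodes Regnase-1 (0.998), and the ceramide synthase gene *Cers6* (0.997). *Dusp4* was nearest to *Hnrnpd*, *Msn* and *Ccdc88b* (each 0.99), *Dusp1* to *Lgals8*, *Itgb1* and *Dcn* (each 0.97), and *Dusp2* to *Gnai3* (0.945), *Rbm45* (0.942) and *Egln2* (0.942). Among those that fell, *Dusp3* was nearest to *Fmo5*, *Galc* and *Slc37a2* (0.991, 0.991 and 0.990), *Dusp7* to *Lfng*, *Gnpda1* and *Stra6l* (0.986, 0.985 and 0.985), and *Dusp22* to *Tmem71*, *Tctn3* and *Nup50* (0.981, 0.980 and 0.977). The nearest gene to *Dusp5* was *C1galt1* (0.962), that to *Dusp10* was *Comtd1* (0.935), and that to *Dusp6* was *Lbp* (0.835), the lowest of the 10. The libraries share LPS times, so any pair of genes that follow LPS in the same way reaches a high r.

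Other genes of MAP kinase signaling were taken from lists of the pathway. Beside the counts below, 29.1% of all genes tested rose and 26.7% fell at 4 hr, and 24.5% rose and 21.6% fell at 8 hr. From 4 to 8 hr it was 12.8% in each direction. Whether a list differs from these shares was not tested. Of 20 further dual-specificity phosphatases tested, 5 rose and 9 fell at 4 hr, and 4 rose and 6 fell at 8 hr, with medians of -0.18 and 0.011. The 2 with the largest changes were the same at both times: *Dusp13* (log2 fold change -2.19 at 4 hr, then -1.23 at 8 hr, limma adjusted p = 0.000225 and 0.0115) and *Epm2a*, which encodes the glycogen phosphatase laforin (-2.01 and -1.38, limma adjusted p = 0.00251 and 0.0247). Their SEs, 0.33 and 0.44, were above the highest of the 10 members (0.21), so these values are imprecise. From 4 to 8 hr, 3 rose and 5 fell, led by *Dusp8*, a JNK phosphatase gene (-1.08, limma adjusted p = 0.008). That fall followed a rise of *Dusp8* at 4 hr against 0 hr (limma adjusted p = 0.000327). At 8 hr, *Dusp8* did not pass against 0 hr (limma adjusted p = 0.184).

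The MAP kinases themselves, the substrates of these enzymes, rose or did not pass at 4 hr. Of 9 tested, 5 rose and 0 fell, and 4 did not pass, with a median of 0.33. The largest changes were in the p38 genes *Mapk11* (1.98 at 4 hr, then 1.29 at 8 hr, limma adjusted p = 5.26e-06 and 0.000199) and *Mapk14* (1.37 and 0.85, limma adjusted p = 4.47e-08 and 2.43e-06). Both fell from 4 to 8 hr, by 0.70 and 0.52 in log2 (limma adjusted p = 0.0192 and 0.000455), as did 4 of the 9 in all, while 0 rose. At 8 hr against 0 hr, 5 rose and 1 fell.

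Upstream kinases were mixed. Of 7 MAP2 kinases, 3 rose and 3 fell at 4 hr, with *Map2k6*, an activator of p38, at -3.70 (SE 0.78, limma adjusted p = 0.00213) and *Map2k1*, an activator of ERK, at 0.85 (SE 0.075, limma adjusted p = 3.01e-06). Of 17 MAP3 kinases and partners of TAK1, 6 rose and 6 fell at 4 hr and 5 rose and 2 fell at 8 hr, with *Map3k5*, which encodes the stress-activated kinase ASK1, at 1.90 and 1.15 (limma adjusted p = 1.49e-07 and 1.14e-05). *Map3k8*, the kinase that links Toll-like receptors to ERK, rose by 1.08 at 4 hr (limma adjusted p = 2.8e-07). From 4 to 8 hr *Map3k8* fell by 0.86 in log2 (limma adjusted p = 2.03e-05). At 8 hr it was still 0.22 above 0 hr (limma adjusted p = 0.0259).

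Downstream, 4 of 10 MAP kinase-activated kinases rose and 4 fell at 4 hr, and 3 rose and 5 fell at 8 hr. *Mapkapk2*, whose product acts below p38 on cytokine mRNA stability, rose by 2.68 at 4 hr (6.41-fold, limma adjusted p = 5.25e-10), and *Mknk2*, which encodes a kinase of the translation factor eIF4E, fell by 2.34 in log2 (limma adjusted p = 5.03e-09). Of 15 early-response genes that MAP kinase signaling induces, 10 rose and 4 fell at 4 hr, and 6 rose and 5 fell at 8 hr, with medians of 0.62 and 0.32. The largest rises were in *Phlda1* (3.98 at 4 hr, then 2.82 at 8 hr, limma adjusted p = 6.12e-09 and 1.22e-07) and *Ier3* (2.13 and 1.96, limma adjusted p = 1.55e-08 and 4.1e-08). The largest fall at both times was in *Fos* (-1.99 and -1.30, limma adjusted p = 1.37e-08 and 5.36e-07). From 4 to 8 hr, 3 of the 15 rose and 7 fell, *Jund* by 0.96 in log2 (limma adjusted p = 1.49e-05).

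Among 19 other negative regulators of the pathway, such as Sprouty, Spred and Ras GTPase-activating proteins, 7 rose and 5 fell at 4 hr, and 5 rose and 3 fell at 8 hr, with medians of 0.31 and 0.11. *Spred1* rose by 1.61 at 8 hr (3.04-fold, limma adjusted p = 6.79e-08), and *Rasa3* fell by 1.94 in log2 at 4 hr (limma adjusted p = 3.27e-08). In all 7 lists, 0 genes passed in any comparison of S513A with WT or in either interaction in limma.

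**Figure D5:**
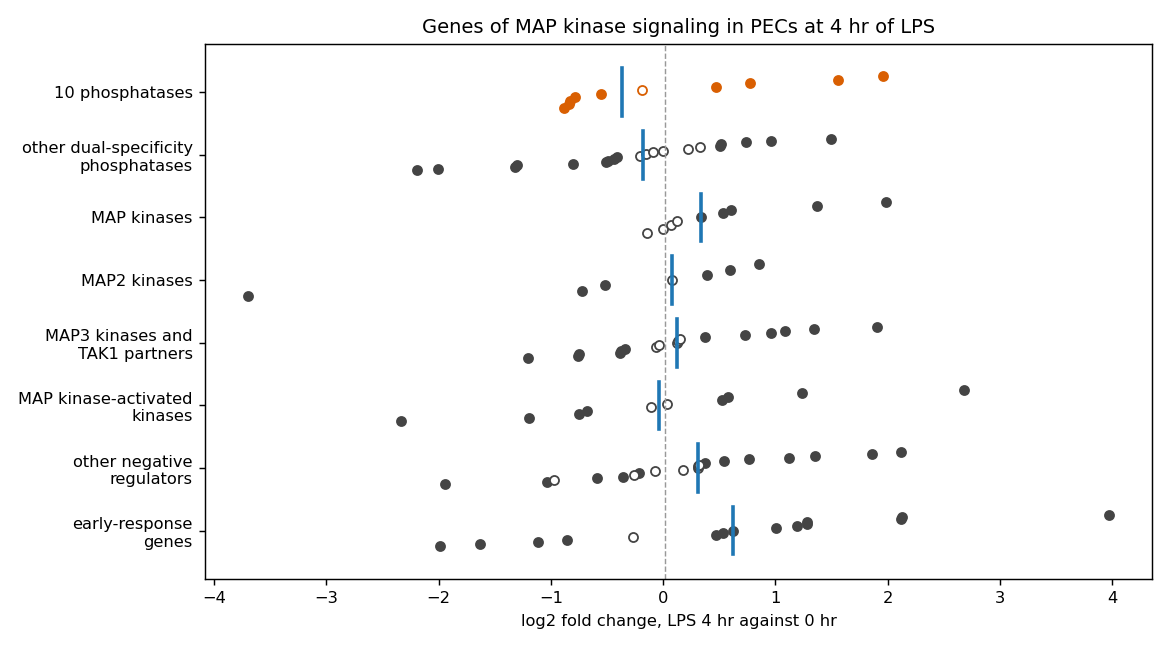
Log2 fold change at 4 hr against 0 hr of LPS (horizontal axis) for the 10 phosphatases (orange) and the tested genes of 7 lists of MAP kinase signaling (gray), 1 circle per gene, filled where limma's adjusted p was under 0.05, with the median of each list as a blue bar and the median of all genes tested (0.017) as a dashed line. The bar of the 10 phosphatases lies at -0.37, left of the dashed line, those of the MAP kinases (0.33) and early-response genes (0.62) lie right of it, and each list spreads to both sides of 0.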

How the data were processed

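RNA of 12 PEC libraries, 2 in each of 6 groups of genotype and LPS time, was sequenced by the authors, who mapped paired-end, unstranded reads to mm10 with HISAT2 and counted them per gene with featureCounts 1.6.3. The authors deposited log2 CPM, in which 0.5 was added to each count before scaling to an effective library size. The program and gene annotation behind these values are not given in the sources used here. Value steps gave back whole reads for every value (largest departure 0.00137 read), 9525979 to 12439960 per library, where 3 reads equal a log2 CPM of -2.04 to -1.30. Floors in reads cover counting error only.

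Groups were taken from the labels. A gene was tested if 2 or more libraries reached 1 CPM, which left 11885 genes. The log2 values were fitted in R 4.3.3 with limma 3.58.1, with 1 mean per group, 6 residual degrees of freedom and a prior that follows the mean level. Tests were two-sided with Benjamini-Hochberg adjustment and a threshold of 0.05. The model was tested on simulated data. Positions and promoter windows came from RefSeq GRCm38.p6, to which 97.7% of listed genes were matched. Transcript lengths, found for 11953 genes, were those of the longest GENCODE transcript matched to a RefSeq mRNA, or the longest of any where none matched. All 10 members were named, with the 3 genes most like each and, from each pathway list, genes among the 2 called ones with the largest change per comparison. *Fos*, the largest fall among the early-response genes, was added. Members, lists and tests were chosen with earlier results of these data known. Tables and plots used Python 3.11.15, pandas 2.3.3 and matplotlib 3.10.9.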

Additional observations from a re-analysis of the deposited data

How the results depend on the processing

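Filters (none, or a mean of 5 CPM), a further pseudocount (1 CPM), scaling by median ratios, quantile normalization, priors and voom weights were tried. So were a replicate block, correlation within genotype and replicate number, only the libraries compared and each library left out. The change within each genotype was taken from the main model, with its spread over all 12 libraries. Of 774 member values for LPS, 721 kept their direction and side of the threshold, 43 missed it (4 members), 2 newly passed it and 8 changed sign, none of the 8 past the threshold. Of 1418 values for genotype and interaction, none passed, and 66 changed sign, the largest 0.142 in size. In both counts, the filters, priors, replicate block, correlation and only the libraries compared could change the p value but not the estimate. The direction of those values was fixed in advance, as it was on leaving out a library of a group not compared. Only the libraries compared gives no value of its own for the mean over times, which uses all libraries.

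The main model called 9 members at 4 hr and 8 at 8 hr, beside 6635 and 5484 of the 11885 genes tested. Leaving out single libraries changed the calls of *Dusp5* and *Dusp6* at 4 hr, *Dusp5* at 8 hr, and *Dusp7* and *Dusp22* from 4 to 8 hr. The stricter filter dropped *Dusp5* and *Dusp10* and left 7 and 6 called, beside 5461 and 4472 of 9292 genes. From 4 to 8 hr, 4 members and 3043 of all genes were called, against 2 members and 2224 genes with only the libraries compared. Within WT and within S513A, 2 members were called each, and calls over all genes were not counted there. Values from 4 to 8 hr that changed sign were *Dusp4* within WT (-0.12), *Dusp10* within S513A (0.0092), and *Dusp3* with quantile normalization (0.016) and within S513A (0.033). On leaving out single libraries, *Dusp5* from 4 to 8 hr ranged from -0.14 to 0.065 and *Dusp6* at 8 hr against 0 hr from -0.16 to 0.0089. The cause was not tested. *Dusp5* and *Dusp10*, at 10 to 44 reads per library, have the least precise values.

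The labels do not say whether the replicate numbers pair the libraries. The check used could not decide it, since each group gave only a single difference between replicates. Correlations of same-numbered deviations ranged from -0.41 to 0.42 over pairs of groups. Within S513A they were 0.15 (0 and 4 hr), 0.087 (0 and 8 hr) and 0.42 (4 and 8 hr). Within WT they were -0.033, 0.081 and -0.098. With the replicate block, 9, 8 and 3 members were called at 4 hr, at 8 hr and from 4 to 8 hr, beside 6462, 5259 and 2766 of all genes. *Dusp22* was lost from the last (limma adjusted p = 0.0651). A crossed replicate block, chosen after seeing the data, called 9, 8 and 4, beside 6873, 5712 and 3305 of all genes.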
